A study of Mus musculus with 6 samples.

Results

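Rod photoreceptors turn absorbed light into an electrical signal in a stack of membrane discs called the outer segment. The genes described here are 30 named mouse genes for rod phototransduction and for the outer segment, listed by symbol for their known function. They were not picked by their values, but earlier results of these data were known when the list was made. All 30 were found among the 54532 genes listed. All 30 also passed the expression filter, a mean of at least 0.5 FPKM, as did 17453 genes in all. FPKM is a level scaled to gene length and to a total for each library. RNA was sequenced from retinas of mice with oxygen-induced retinopathy, a model in which high oxygen prunes the young retinal vessels and the return to room air is followed by new vessel growth. All animals entered 75% ± 2% oxygen on postnatal day 7 and gave retinas on postnatal day 17. The miR-381-3p antagomir group (3 libraries) had 1 nmol of an antagomir, a modified antisense oligonucleotide that binds a microRNA, injected into the vitreous on postnatal day 12. The antagomir nc group (3 libraries) had 1 nmol of a negative control antagomir at the same age. The sources used here give no strain or genotype, and the injection is not specific to rods. The columns of the table that do not carry the control's name were read as the antagomir libraries, and every direction rests on that reading.

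In the dark a rod holds its cation channel open with cyclic GMP. Light activates the visual pigment, which activates the G protein transducin (Gnat1, Gnb1, Gngt1). Transducin releases the inhibitory subunit of the phosphodiesterase (Pde6a, Pde6b, Pde6g), cyclic GMP falls, and the channel (Cnga1, Cngb1) closes. Recovery needs a kinase, arrestin and a GTPase-accelerating complex to end the signal, and guanylate cyclases with calcium-sensing activators to restore cyclic GMP. Several of these genes, among them Prph2, Rom1, Rcvrn and Guca1a, are also active in cones, and Gnb1 in many cell types, so the values are those of the whole retina. In whole tissue, fewer rods and less RNA per rod cannot be told apart.

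The injected oligonucleotide is directed against miR-381-3p, whose mature form lies at chr12:109726870-109726891 on the plus strand (RefSeq, GRCm38.p6) and is 22 bases long. Its sequence is shown with the seed, bases 2 to 8, in capitals, because the seed decides which letters were searched for in the rod transcripts.
miR-381-3p: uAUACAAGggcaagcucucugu
The 7-base match to the seed is CTTGTAT. It occurred in the longest annotated 3′ UTR (GENCODE M21, GRCm38) of 4 of the 30 rod genes (13.3%), against 13.0% of the 13178 tested genes with a 3′ UTR. The shorter 6-base match TTGTAT, which every 7-base match contains, occurred in 11 of 30 (36.7%), against 42.6% of the same genes. The median 3′ UTR length was 1218 bases in the rod genes and 1201 bases in the tested genes. The 5 matches lay in Gucy2e at chr11:69219521-69219550 (minus strand), in Gucy2f at chrX:142082536-142082565 and chrX:142082310-142082339 (minus strand), in Grk1 at chr8:13419010-13419039 (plus strand) and in Impg2 at chr16:56273369-56273398 (plus strand). They are shown with their flanks, the match in capitals, as the only rod genes whose longest 3′ UTR matches the whole seed.
Gucy2e: accatgtggggCTTGTATcactccctggcc
Gucy2f upstream: agtatatggtcCTTGTATagaatgtagaaa
Gucy2f downstream: acaagccgattCTTGTATattgtcggccaa
Grk1: atgtaggttgaCTTGTATcctggtcaccag
Impg2: tgattttttctCTTGTATttaattaattaa
The log2 fold changes of these 4 genes, antagomir over nc, were 0.012 for Gucy2e, -0.12 for Gucy2f, -0.084 for Grk1 and -0.039 for Impg2. None of the 4 was past an adjusted p of 0.05 by limma, and their adjusted p lay between 0.881 and 0.978. A match is a description of letters and does not show that the microRNA acts there.

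Rod genes are known to be driven by the transcription factors CRX and NRL, whose core binding letters were counted in the RefSeq promoters (GRCm38.p6, 300 bases around the start) of the 23 rod genes that had an entry. The CRX-like letters TAATCC, or GGATTA on the other strand, occurred in 10 of 23 promoters (43.5%), against 7.06% of all 32851 promoters of the same length. The NRL-like letters TGCTGA, or TCAGCA, occurred in 8 of 23 (34.8%), against 19.5% of all. Both occurred in 3 (13.0%, against 1.36% of all) and neither in 8 (34.8%, against 74.8% of all). Sag has both, Guca1a the CRX-like letters and Rgs9 the NRL-like letters, and these promoters are printed with the matches in capitals because the values of these 3 genes are described in most detail. They lie at chr1:87803430-87803729 (plus strand), chr17:47400557-47400856 (minus strand) and chr11:109298132-109298431 (minus strand), in that order.
Sag: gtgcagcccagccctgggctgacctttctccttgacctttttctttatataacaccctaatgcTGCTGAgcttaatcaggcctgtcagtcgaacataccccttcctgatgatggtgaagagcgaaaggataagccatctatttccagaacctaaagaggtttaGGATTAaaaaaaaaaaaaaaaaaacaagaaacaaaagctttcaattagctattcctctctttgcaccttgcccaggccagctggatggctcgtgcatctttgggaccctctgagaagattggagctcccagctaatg
Guca1a: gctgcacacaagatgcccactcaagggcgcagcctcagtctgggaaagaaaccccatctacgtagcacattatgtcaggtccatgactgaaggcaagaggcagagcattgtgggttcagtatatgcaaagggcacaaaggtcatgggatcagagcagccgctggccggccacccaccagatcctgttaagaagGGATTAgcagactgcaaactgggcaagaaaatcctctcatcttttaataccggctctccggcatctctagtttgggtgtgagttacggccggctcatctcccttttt
Rgs9: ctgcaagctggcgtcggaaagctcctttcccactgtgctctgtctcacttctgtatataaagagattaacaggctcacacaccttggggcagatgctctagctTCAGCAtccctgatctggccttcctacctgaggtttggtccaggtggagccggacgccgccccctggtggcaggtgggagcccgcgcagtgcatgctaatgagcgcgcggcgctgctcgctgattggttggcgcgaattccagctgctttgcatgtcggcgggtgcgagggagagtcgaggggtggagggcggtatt
Tulp1, the other gene besides Rgs9 whose groups did not overlap, holds neither motif in its promoter window.

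The rod genes were among the most abundant transcripts of these retinas. By mean FPKM over the 6 libraries, 21 of 30 stood among the 100 highest genes and 29 among the 500 highest. The levels of 3 genes exceeded 1000 FPKM (Gnat1, Prph2 and Rom1), 23 lay between 100 and 1000 FPKM, and 4 lay under 100 FPKM (Impg1, Gucy2e, Impg2 and Gucy2f). Gnat1 ranked 6 among all genes, and Gucy2f, at 30.8 FPKM, ranked 1433.

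**Figure D1:**
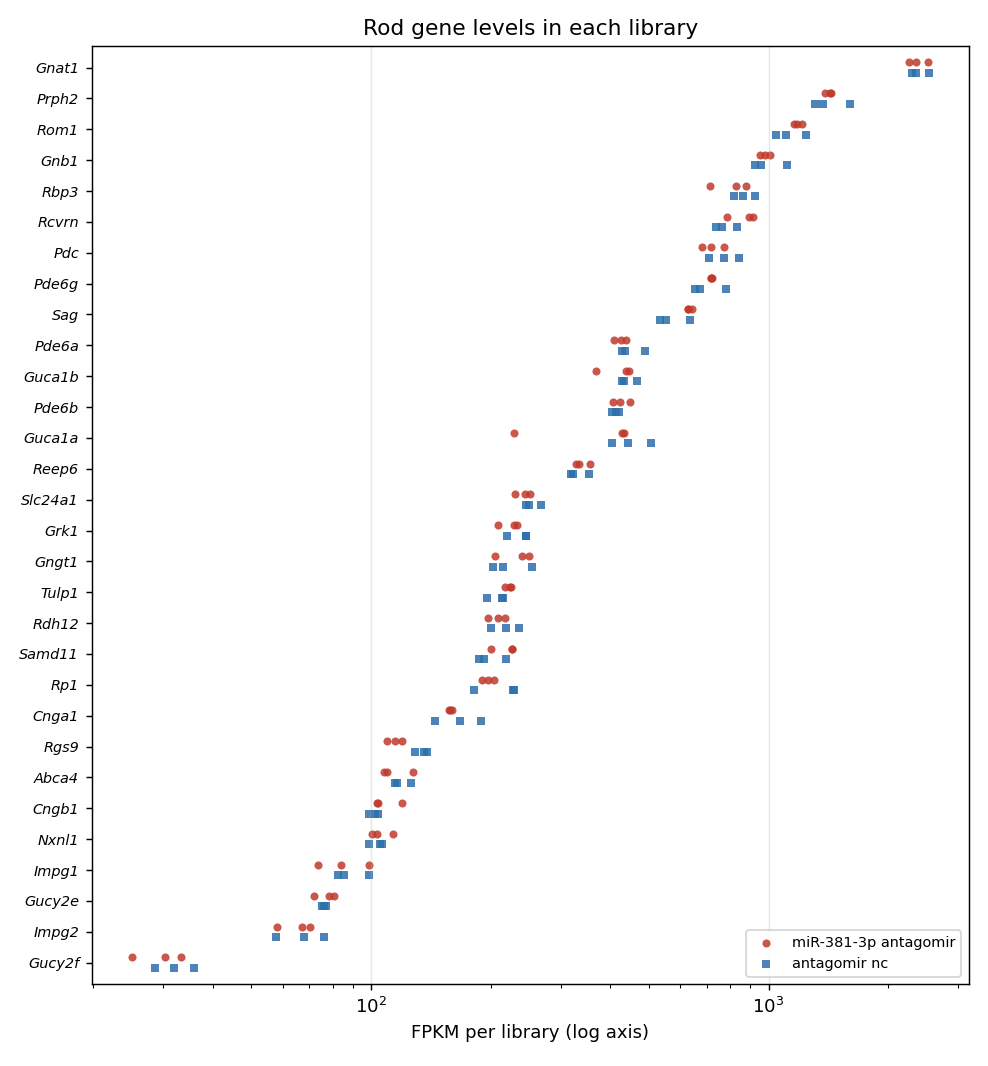
Each row is a rod gene, ordered by mean level, and each point is the FPKM of a library on a log axis, for the miR-381-3p antagomir (circles, n = 3) and antagomir nc (squares, n = 3). The groups overlap in 28 of 30 genes. Rgs9 and Tulp1 are the genes without overlap, and the isolated low circle of Guca1a is antagomir replicate 3 at 229 FPKM.

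No rod gene differed between antagomir and nc retinas beyond the threshold of the test. By limma, 0 of the 30 rod genes had an adjusted p under 0.05, against 0 of all 17453 genes tested (0%). With voom on reads rebuilt from the FPKM, 1 of all genes passed, Fxyd6, which is not a rod gene. At an unadjusted p under 0.05 there was 1 rod gene, Rgs9 (3.33%), against 1082 of all tested genes (6.20%). The antagomir values all lay above the nc values in 1 rod gene, Tulp1 (3.33%), against 1075 of all tested genes (6.16%). They all lay below the nc values in 1 rod gene, Rgs9 (3.33%), against 1024 of all tested genes (5.87%). These shares of the rod genes were not above the background.

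The log2 fold change was above 0 in 12 rod genes and below 0 in 18, with a median of -0.030. Over all tested genes it was above 0 in 8809 and below 0 in 8644, with a median of 0.0013. Most differences were small, under 0.1 in size for 22 of 30 genes, and the median size was 0.073, against 0.070 in the 1433 genes at least as abundant as the lowest rod gene. Leaving Guca1a aside, the 95% limma intervals of the antagomir over nc ratio all lay between 0.751 and 1.29. The split of directions depended on antagomir nc replicate 1: without it 18 genes were above 0 and 12 below, with a median of 0.026. It was 11 and 17 with quantile normalization, where 2 genes stood at exactly 0, and 14 and 16 with voom.

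**Figure D2:**
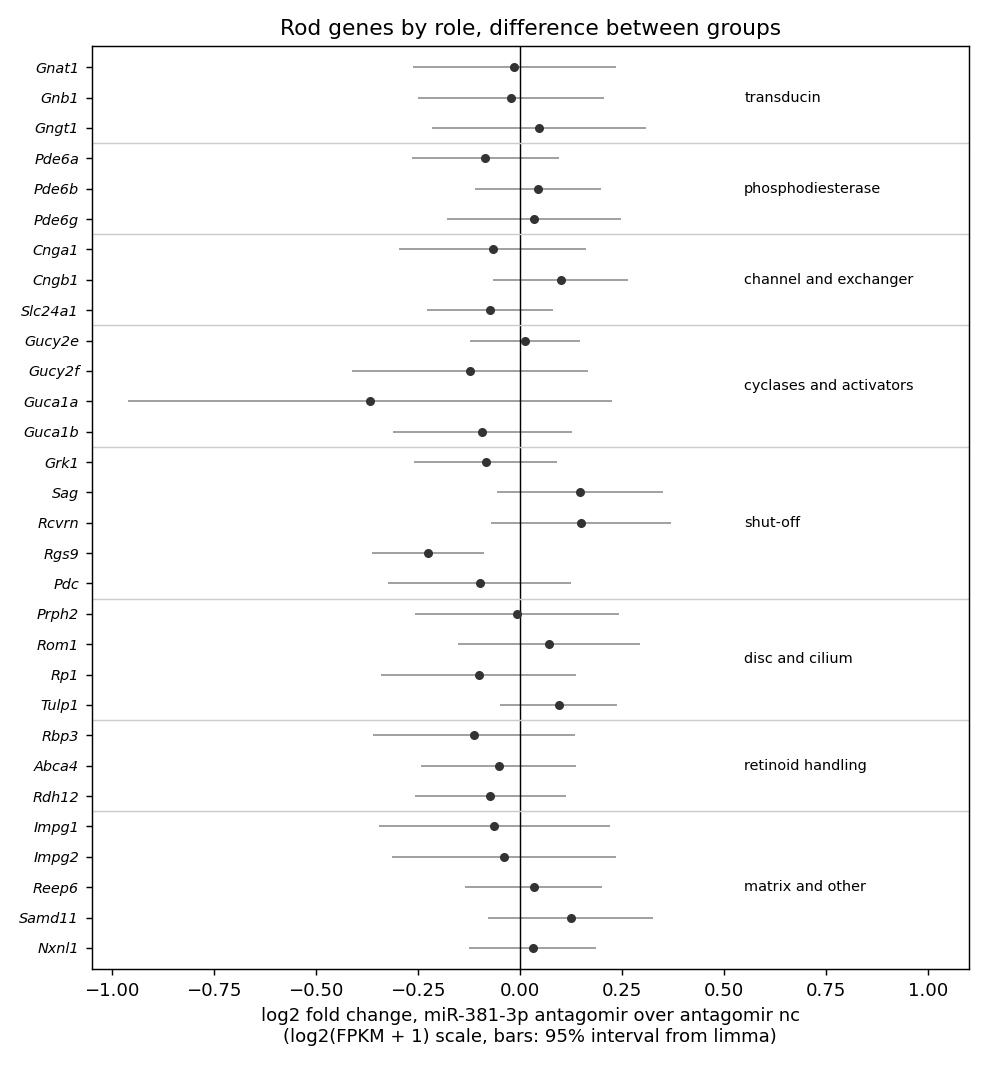
Log2 fold change of each rod gene, miR-381-3p antagomir over antagomir nc (points, limma on log2(FPKM + 1), n = 3 libraries each), with its 95% interval as a bar and the vertical line at 0. Only the bar of Rgs9 (-0.23) does not cross 0, and the widest bar is that of Guca1a.

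Antagomir nc replicate 1 gave the highest value of 17 of the 30 rod genes and the lowest of none, whereas 16.5% of all tested genes were highest in that library. Antagomir replicates 1, 2 and 3 were highest in 1, 3 and 7 rod genes, and antagomir nc replicates 2 and 3 in 0 and 2. The lowest value stood in antagomir replicates 1, 2 and 3 for 4, 4 and 6 genes and in antagomir nc replicates 2 and 3 for 8 genes each. Summed over the 30 genes, the antagomir libraries 1, 2 and 3 held 13969, 14337 and 13887 FPKM, against 15350, 13594 and 13599 FPKM in antagomir nc libraries 1, 2 and 3. That was 5.58%, 5.70% and 5.58% of all FPKM in the antagomir libraries, against 5.92%, 5.50% and 5.53% in the nc libraries. All FPKM summed to 259086 in antagomir nc replicate 1, against 246082 to 251574 in the other libraries. The rod sums averaged 14064 ± 240.0 FPKM in antagomir libraries and 14181 ± 1012 FPKM in nc libraries (SD, n = 3 each). The log2 difference was -0.0097, with p = 1 in an exact two-sided permutation test, which cannot give less than 0.1 with 3 libraries against 3. The antagomir sums lay between the lowest and the highest nc sums.

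**Figure D3:**
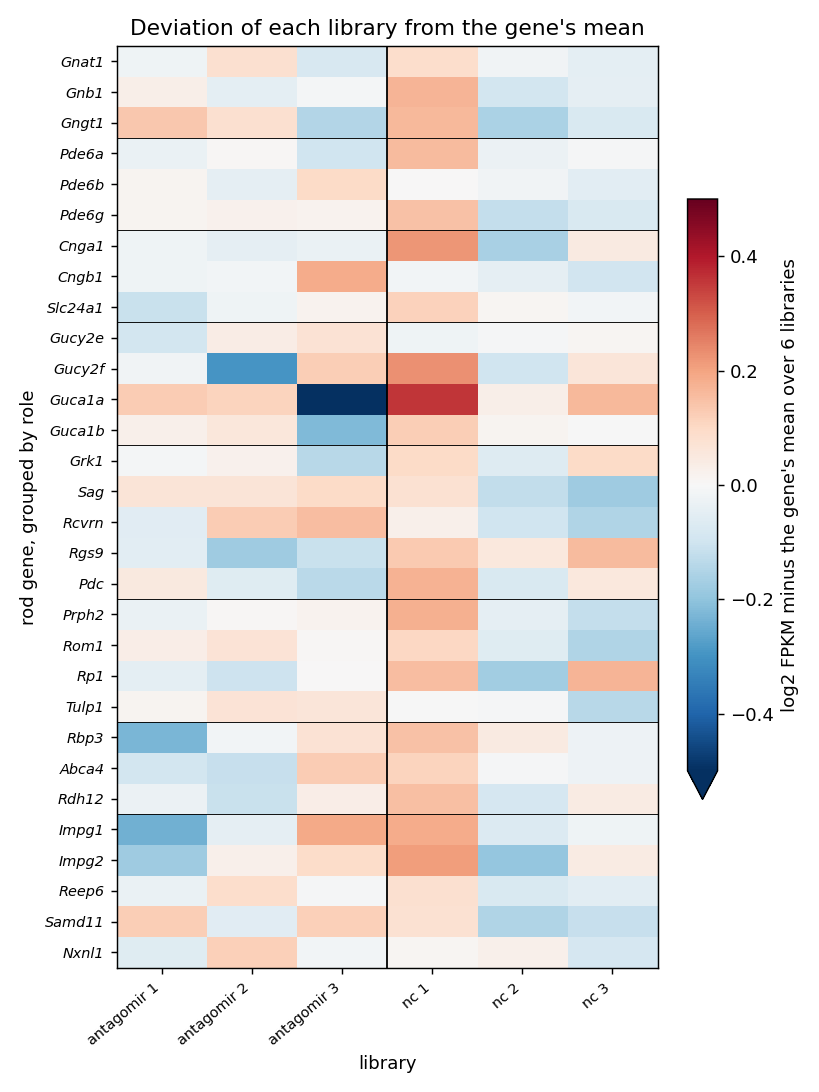
Colour shows the log2 FPKM of each library minus the gene's mean over the 6 libraries, with rod genes in rows grouped by role and libraries in columns (antagomir left of the line, nc right). The nc 1 column is above the mean for most genes, and the darkest cell, beyond the lower end of the scale, is Guca1a in antagomir replicate 3.

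Markers of other tissue also differed between these libraries. The summed level of 12 lens genes was 367, 8.89 and 4.65 FPKM in antagomir replicates 1, 2 and 3, against 5.77, 870 and 308 FPKM in antagomir nc replicates 1, 2 and 3. Of these 12 genes 9 were above 0 in every library, Crybb2, Crygs and Lim2 were listed at 0 in antagomir replicate 3, and Lim2 also in antagomir nc replicate 1. Antagomir nc replicate 1 thus had the highest rod sum and the lowest lens sum of its group. The 5 red blood cell genes, none of them at 0 in any library, summed to 21.4 to 61.2 FPKM in antagomir libraries, against 220, 84.7 and 66.4 FPKM in antagomir nc replicates 1, 2 and 3. Without the 3 libraries with lens transcripts, which leaves that nc library alone in its group, 7 rod genes were above 0 and 23 below, with a median of -0.12. With a lone nc library the spread in that fit comes from the antagomir libraries, so its p-values are not used here. With a lens score as a term the split was 9 and 21. The summed level of 10 cone markers was 815, 925 and 708 FPKM in antagomir libraries, against 917, 769 and 771 FPKM in nc libraries. The 925 FPKM of antagomir replicate 2 included 323 FPKM of Gnb3, which stood at 173 to 223 FPKM in the other libraries. The part of red blood cell RNA in the rod values was not tested. Reads of genes, rebuilt from the FPKM, summed to between 13727596 and 16502352 a library, and the sequenced totals are not known from them. Nothing in the labels ties the libraries to separate animals, so the p-values cover sample-to-sample spread that may be technical.

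Transducin couples the visual pigment to the phosphodiesterase, and its rod α subunit is encoded by Gnat1 (ENSMUSG00000034837, chr9:107674474-107679712, minus strand, GRCm38). Gnat1 stood at 2346, 2513 and 2250 FPKM in antagomir libraries, against 2528, 2348 and 2302 FPKM in nc libraries. The groups overlapped, with a log2 fold change of -0.014 (SE 0.10, adjusted p = 0.986 by limma) and a 95% interval of the ratio between 0.833 and 1.18. Gnb1, the β subunit, stood at 1007, 954 and 979 FPKM in antagomir libraries, against 1112, 926 and 956 FPKM in nc libraries. The nc libraries included both the highest and the lowest value (log2 fold change -0.022, adjusted p = 0.976 by limma). Gngt1, the rod γ subunit, stood at 249, 240 and 205 FPKM in antagomir libraries, against 254, 203 and 215 FPKM in nc libraries. Again the nc group spanned the whole range, with a log2 fold change of 0.047 and adjusted p = 0.956 by limma.

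The phosphodiesterase hydrolyses cyclic GMP with the catalytic subunits α (Pde6a) and β (Pde6b), held in check by the inhibitory γ subunit (Pde6g). Pde6a stood at 426, 438 and 408 FPKM in antagomir libraries, against 488, 428 and 435 FPKM in nc libraries. Pde6b stood at 423, 407 and 448 FPKM in antagomir libraries, against 420, 414 and 405 FPKM in nc libraries. Pde6g stood at 716, 719 and 717 FPKM in antagomir libraries, against 783, 653 and 672 FPKM in nc libraries. The 3 antagomir values of Pde6g were nearly equal and lay inside the nc range. Log2 fold changes were -0.085, 0.044 and 0.034 for Pde6a, Pde6b and Pde6g, with adjusted p between 0.885 and 0.961 by limma.

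The cyclic GMP-gated channel is built from Cnga1 and Cngb1 subunits, and the sodium-calcium-potassium exchanger Slc24a1 removes the calcium that enters. Cnga1 stood at 160, 157 and 158 FPKM in antagomir libraries, against 189, 145 and 167 FPKM in nc libraries. Cngb1 stood at 104, 104 and 120 FPKM in antagomir libraries, against 104, 102 and 98.6 FPKM in nc libraries. The Cnga1 antagomir values lay inside the nc range, and for Cngb1 the highest value was antagomir replicate 3. Log2 fold changes were -0.067 for Cnga1 and 0.10 for Cngb1, with adjusted p = 0.931 and 0.855 by limma. Slc24a1 averaged 242 ± 11.0 FPKM in antagomir libraries and 255 ± 12.1 FPKM in nc libraries (SD, n = 3 each).

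Guanylate cyclases rebuild cyclic GMP after light, and the activating proteins encoded by Guca1a and Guca1b switch them on when calcium is low. The cyclase gene Gucy2e stood at 72.0, 78.5 and 80.6 FPKM in antagomir libraries, against 75.5, 76.3 and 77.1 FPKM in nc libraries. The cyclase gene Gucy2f stood at 30.2, 25.0 and 33.3 FPKM in antagomir libraries, against 35.8, 28.6 and 31.9 FPKM in nc libraries. The groups of both cyclases overlapped, with log2 fold changes of 0.012 and -0.12 and adjusted p = 0.978 and 0.900 by limma. Both carry the 7-base match of miR-381-3p printed above.

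Guca1a (ENSMUSG00000023982, chr17:47394558-47400584, minus strand) varied more than any other rod gene. It stood at 433, 427 and 229 FPKM in antagomir libraries 1, 2 and 3, against 507, 404 and 443 FPKM in nc libraries 1, 2 and 3. The value of antagomir replicate 3, from 3293 rebuilt reads, was 0.566 times that of the lowest other library, and the other 5 libraries averaged 443 FPKM. Its log2 fold change was -0.37 (SE 0.25, adjusted p = 0.853 by limma), with a 95% interval of the ratio between 0.514 and 1.17. Without antagomir replicate 3 the log2 fold change was -0.065, and without the 3 libraries with lens transcripts it was -0.70, with adjusted p between 0.790 and 0.990 over the 16 alternative fits with at least 2 libraries a group.

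Among the 1433 genes at least as abundant as the lowest rod gene, 9 were as low in antagomir replicate 3 relative to the other libraries. Of these, 7 were crystallin genes, which encode structural proteins of the lens, and the others were Guca1a and Selenbp1, named here after the values were seen. The 7 crystallin genes stood at 0 to 0.677 FPKM in antagomir replicate 3. They were also low in antagomir replicate 2 (0.784 to 3.39 FPKM) and antagomir nc replicate 1 (0.107 to 1.38 FPKM). Their ratios thus compare values near the floor, unlike that of Guca1a. Selenbp1, which encodes a selenium-binding protein, stood at 33.2, 25.5 and 12.5 FPKM in antagomir libraries 1, 2 and 3, against 40.7, 38.1 and 45.4 FPKM in nc libraries. Guca1b lies next to Guca1a, tail to tail and 1590 bases away. It stood at 437, 446 and 368 FPKM in antagomir libraries 1, 2 and 3, against 468, 434 and 429 FPKM in nc libraries 1, 2 and 3. It too was lowest in antagomir replicate 3, with a log2 fold change of -0.092 and adjusted p = 0.900 by limma.

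Signal shut-off begins when the kinase Grk1 phosphorylates the active pigment and arrestin, encoded by Sag, binds it. Grk1 averaged 223 ± 13.1 FPKM in antagomir libraries and 237 ± 14.7 FPKM in nc libraries (SD, n = 3 each). Sag (ENSMUSG00000056055, chr1:87803680-87845158, plus strand) stood at 629, 629 and 643 FPKM in antagomir libraries, against 635, 553 and 532 FPKM in nc libraries. Antagomir nc replicate 1 reached the antagomir values, so the groups overlapped. Sag had a log2 fold change of 0.15 (SE 0.086, adjusted p = 0.822 by limma). It was 0.22 without antagomir nc replicate 1 and 0.0019 without the 3 libraries with lens transcripts (adjusted p between 0.599 and 0.990 over the 16 alternative fits with at least 2 libraries a group).

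Recoverin, encoded by Rcvrn, restrains the kinase while calcium is high. It stood at 786, 894 and 911 FPKM in antagomir libraries, against 832, 763 and 738 FPKM in nc libraries. The groups overlapped through antagomir replicate 1, and the log2 fold change of 0.15 was the highest among the rod genes (adjusted p = 0.835 by limma). Phosducin, encoded by Pdc, binds the βγ subunits of transducin, and averaged 723 ± 46.3 FPKM in antagomir libraries and 775 ± 66.8 FPKM in nc libraries (SD, n = 3 each).

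Rgs9 (ENSMUSG00000020599, chr11:109225355-109298129, minus strand) encodes the GTPase-accelerating protein that switches transducin off. It stood at 120, 110 and 115 FPKM in antagomir libraries, against 136, 129 and 139 FPKM in nc libraries. All 3 antagomir values lay below all 3 nc values. The log2 fold change was -0.23 (SE 0.058), with a 95% interval of the ratio between 0.778 and 0.941. The unadjusted p was 0.0062 and the adjusted p 0.801 by limma, so the gene did not pass over all genes tested. Its unadjusted p stayed under 0.05 in 16 of 16 alternative fits with at least 2 libraries a group, with log2 fold changes between -0.26 and -0.19 and adjusted p between 0.654 and 0.990. These fits reuse the libraries in which Rgs9 was singled out by its unadjusted p, so they are not independent support. The size-factor fit among them nearly repeated the main fit, at -0.225412 against -0.225416. The protein works in a complex with the products of Rgs9bp, its membrane anchor, and Gnb5. Rgs9bp, described after its values were seen, stood at 114, 112 and 102 FPKM in antagomir libraries, against 120, 115 and 121 FPKM in nc libraries. Its groups did not overlap either, with a log2 fold change of -0.12 and adjusted p = 0.806 by limma. Gnb5 stood at 332, 315 and 257 FPKM in antagomir libraries, against 337, 284 and 329 FPKM in nc libraries, and its groups overlapped.

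The disc rim is shaped by the tetraspanin peripherin, encoded by Prph2, and its relative encoded by Rom1. Prph2 stood at 1388, 1424 and 1437 FPKM in antagomir libraries, against 1604, 1374 and 1307 FPKM in nc libraries. Rom1 stood at 1182, 1210 and 1162 FPKM in antagomir libraries, against 1240, 1109 and 1042 FPKM in nc libraries. For both genes the antagomir values lay inside the nc range, with log2 fold changes of -0.0069 and 0.071 and adjusted p = 0.994 and 0.923 by limma. Rp1, which encodes a microtubule protein of the photoreceptor axoneme, averaged 197 ± 7.22 FPKM in antagomir libraries and 213 ± 27.3 FPKM in nc libraries (SD, n = 3 each).

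Tulp1 (ENSMUSG00000037446, chr17:28351515-28365222, minus strand) encodes a tubby-like protein needed to carry outer segment proteins out of the inner segment. It stood at 217, 225 and 224 FPKM in antagomir libraries, against 215, 214 and 195 FPKM in nc libraries. The groups did not overlap, but the nearest values of the groups, 217 and 215 FPKM, almost touched. Tulp1 had a log2 fold change of 0.095 (SE 0.061, adjusted p = 0.842 by limma).

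Genes for retinoid handling carry the chromophore between cells and detoxify its products. Rbp3, the retinoid-binding protein of the space around the outer segments, averaged 805 ± 85.5 FPKM in antagomir libraries and 868 ± 51.7 FPKM in nc libraries. Abca4, which flips retinoids across the disc membrane, averaged 115 ± 10.8 FPKM in antagomir libraries and 119 ± 6.26 FPKM in nc libraries. Rdh12, a retinol dehydrogenase, averaged 207 ± 10.4 FPKM in antagomir libraries and 218 ± 17.7 FPKM in nc libraries (SD, n = 3 each for these genes). All 3 had log2 fold changes below 0, between -0.11 and -0.053, and none passed the test.

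The matrix proteoglycans encoded by Impg1 and Impg2 surround the outer segments. Impg1 averaged 85.6 ± 12.8 FPKM in antagomir libraries and 89.0 ± 8.53 FPKM in nc libraries, and Impg2 65.2 ± 6.28 FPKM in antagomir libraries and 67.2 ± 9.27 FPKM in nc libraries. Reep6, which encodes a membrane-shaping protein of the rod endoplasmic reticulum, averaged 339 ± 14.8 FPKM in antagomir libraries and 331 ± 19.6 FPKM in nc libraries. Nxnl1, the gene of the rod-derived cone viability factor, averaged 106 ± 6.96 FPKM in antagomir libraries and 104 ± 4.22 FPKM in nc libraries. Samd11, which encodes a nuclear repressor protein of rods, averaged 217 ± 15.2 FPKM in antagomir libraries and 199.5 ± 17.1 FPKM in nc libraries (SD, n = 3 each for these genes). Samd11 is uncertain: its exons overlap those of Noc2l by 598 bases and those of the antisense gene Gm47252 by 426 bases on the opposite strand, and the sources used here give no strand setting for the counting. It was the only rod gene of the 30 with such an overlap.

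Summed by role, the groups overlapped in all 8 sets. The transducin genes summed to 3581 ± 137 FPKM in antagomir libraries and 3615 ± 242 FPKM in nc libraries, and the phosphodiesterase genes to 1567 ± 4.18 FPKM in antagomir libraries and 1566 ± 109 FPKM in nc libraries. The channel and exchanger summed to 509 ± 18.1 FPKM in antagomir libraries and 523 ± 33.9 FPKM in nc libraries. The cyclases and their activators showed the widest gap, 887 ± 152 FPKM in antagomir libraries and 1004 ± 74.5 FPKM in nc libraries (log2 difference -0.19), with antagomir replicate 3 lowest at 711 FPKM. The shut-off genes summed to 2559 ± 23.0 FPKM in antagomir libraries and 2498 ± 170 FPKM in nc libraries, and the disc and cilium genes to 3020 ± 33.4 FPKM in antagomir libraries and 2980 ± 271 FPKM in nc libraries. The retinoid handling genes summed to 1127 ± 97.1 FPKM in antagomir libraries and 1206 ± 70.0 FPKM in nc libraries, and the matrix and remaining genes to 813 ± 24.1 FPKM in antagomir libraries and 791 ± 54.6 FPKM in nc libraries (SD, n = 3 each). Exact two-sided permutation p over the 8 role sums lay between 0.4 and 1, where the smallest possible is 0.1.

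A ratio of transcripts within a library does not depend on how that library was scaled, so 25 ratios were compared, 15 between rod genes of a shared complex or step and 10 between a rod gene and its cone counterpart. Gnat1 stood at 2.42 ± 0.187 times Gnb1 in antagomir libraries and 2.41 ± 0.131 times in nc libraries. Pde6a stood at 0.998 ± 0.084 times Pde6b in antagomir libraries and 1.09 ± 0.064 times in nc libraries. Cnga1 stood at 1.45 ± 0.117 times Cngb1 in antagomir libraries and 1.64 ± 0.202 times in nc libraries (SD, n = 3 each). The groups of these ratios overlapped. The ratio of Guca1a to Guca1b was 0.989, 0.957 and 0.621 in antagomir libraries 1, 2 and 3, against 1.08, 0.931 and 1.03 in nc libraries 1, 2 and 3. Antagomir replicate 3 again stood apart.

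In 5 of the 25 ratios the groups did not overlap, each with p = 0.1 in an exact two-sided permutation test, the smallest that 3 against 3 allows, and adjusted p = 0.5 over the 25. For levels of single genes, the antagomir values all lay above the nc values in 6.16% of all tested genes and below them in 5.87%. Several pairs share a gene, such as Pde6a, so the ratios are not independent of each other. Pde6g over Pde6a was higher, at 1.68, 1.64 and 1.76 in antagomir libraries, against 1.61, 1.52 and 1.54 in nc libraries. Sag over Grk1 was higher, at 2.75, 2.70 and 3.08 in antagomir libraries, against 2.59, 2.51 and 2.17 in nc libraries. The 3 others were lower in antagomir libraries, and they involve the disc rim, the GTPase-accelerating protein and a phosphodiesterase subunit. Prph2 over Rom1 was 1.17, 1.18 and 1.24 in antagomir libraries, against 1.29, 1.24 and 1.25 in nc libraries, the groups being closest at 1.237 and 1.239. Rgs9 over Gnat1 was 0.051, 0.044 and 0.051 in antagomir libraries, against 0.054, 0.055 and 0.060 in nc libraries. Pde6a over the cone subunit Pde6c was 7.50, 8.04 and 8.07 in antagomir libraries, against 8.39, 8.28 and 8.32 in nc libraries. No ratio passed the adjustment, and the design cannot reach 0.05 for any.

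**Figure D4:**
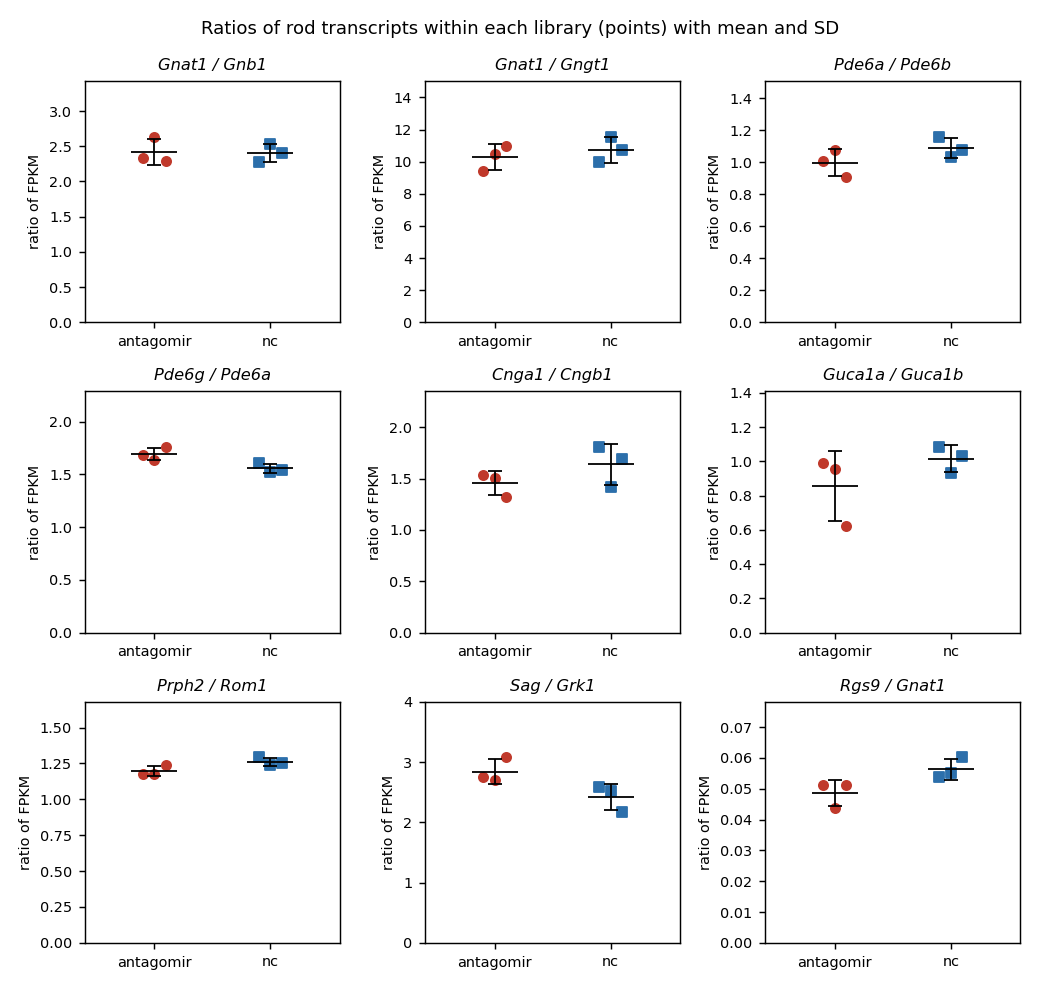
Ratios of FPKM within each library for 9 pairs of rod genes, miR-381-3p antagomir (circles) left of antagomir nc (squares), with the mean and SD of 3 libraries as bars and every axis starting at 0. The groups do not overlap for Pde6g over Pde6a, Prph2 over Rom1, Sag over Grk1 and Rgs9 over Gnat1, and the low circle of Guca1a over Guca1b is antagomir replicate 3 at 0.621.

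Rod transcripts exceeded those of their cone counterparts in every library of the 10 pairs. Gnat1 stood at 36.2 ± 2.31 times the cone transducin gene Gnat2 in antagomir libraries and 34.8 ± 3.46 times in nc libraries. Pde6g stood at 31.9 ± 1.37 times Pde6h in antagomir libraries and 31.6 ± 3.07 times in nc libraries. The channel gene Cngb1 stood at 24.6 ± 2.39 times Cngb3 in antagomir libraries and 21.2 ± 2.59 times in nc libraries, and Sag at 9.04 ± 2.09 times the cone arrestin gene Arr3 in antagomir libraries and 7.24 ± 1.39 times in nc libraries (SD, n = 3 each). Gnb1 over Gnb3 was 4.78, 2.95 and 5.23 in antagomir libraries, against 4.99, 5.36 and 5.36 in nc libraries, the low value being antagomir replicate 2. In that library Gnb3 stood at 323 FPKM, against 173 to 223 FPKM in the others. Since Gnb1 is active in many cell types, the ratio of Gnb1 to Gnb3 does not compare rods with cones alone. In 9 of the 10 pairs the groups overlapped, the exception being Pde6a over Pde6c.

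Levels compared between genes depend on the gene length behind the FPKM. The deposited length equalled the union of all annotated exons for 28 of 30 rod genes. Set against the transcript with the longest coding sequence, a choice made after seeing the data, it was 0.985 to 5.18 times as long, and over 2 times as long in 7 genes (Sag, Tulp1, Gngt1, Pdc, Rgs9, Pde6g and Cnga1). Sag has a deposited length of 8904 bases against 1719 bases for its coding transcript, and rescaling moved it from 9 to 1 in the order of the rod genes, with Gnat1 at 2. Pdc moved from 7 to 3 and Pde6g from 8 to 4. Rescaling assigns every read of a gene to its coding transcript, so the level comes out too high where reads fall on other exons. The share of such reads was not tested, and the same limit holds for rescaled ratios.

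Among the ratios between rod genes, averaged over the 6 libraries, Gnat1 over Gngt1 was 4.61 with the coding transcript's length and 10.5 with the deposited length. Pde6g over Pde6a was 4.25 with the coding transcript's length and 1.63 with the deposited length. The order turned for a pair of them. Pde6a over Pde6b was 0.573 with the coding transcript's length and 1.04 with the deposited length, and Sag over Rcvrn was 3.81 with the coding transcript's length and 0.736 with the deposited length. The rod over cone ratios moved as well: averaged over the 6 libraries, Sag over Arr3 was 24.3 with the coding transcript's length and 8.14 with the deposited length, and Pde6g over Pde6h was 61.9 with the coding transcript's length and 31.8 with the deposited length. Plain FPKM ratios between the groups are the same under either length, since each gene has a fixed length in all libraries. The limma fold changes use log2(FPKM + 1) and would not be identical, and no fit was made on rescaled values.

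**Figure D5:**
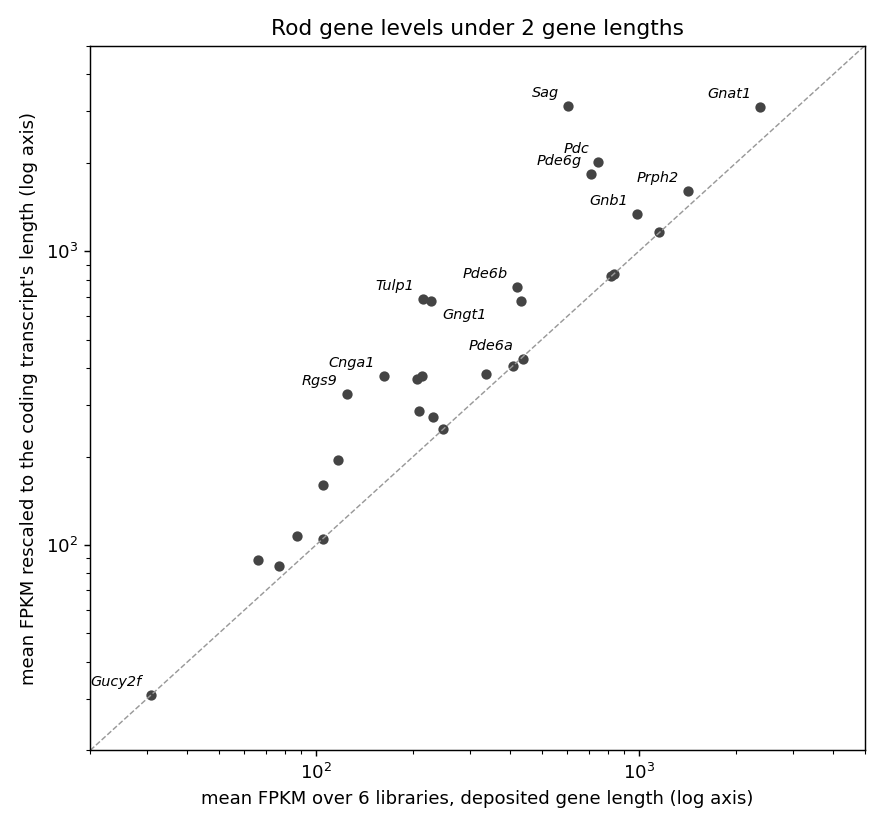
Mean FPKM of each rod gene over the 6 libraries, with the deposited gene length on the horizontal axis and rescaled to the length of the transcript with the longest coding sequence on the vertical axis (both log axes). Points on the dashed line have equal lengths, and Sag lies farthest above it, at 603 FPKM deposited and 3125 FPKM rescaled.

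From library to library the rod genes varied about as much as other abundant genes. The coefficient of variation over the 6 libraries had a median of 7.03%, against 6.73% in the 1433 genes at least as abundant as the lowest rod gene. Without Guca1a it ran from 3.74% (Pde6b) to 12.3%. The highest library exceeded the lowest by a factor under 1.3 in 25 of 30 genes.

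Beyond these 30 genes, 46 other photoreceptor genes were listed, of which 45 were found and tested. Their log2 fold changes were above 0 in 29 and below 0 in 16, with a median of 0.023. None passed an adjusted p of 0.05 by limma, and 3 had an unadjusted p under 0.05 (6.67%, against 6.20% of all tested genes). The antagomir values all lay above the nc values in 6 (13.3%, against 6.16% of all tested genes) and below them in 5 (11.1%, against 5.87% of all tested genes). Cabp4, which regulates calcium channels of the photoreceptor synapse, stood at 141, 145 and 150 FPKM in antagomir libraries, against 138, 126 and 127 FPKM in nc libraries (log2 fold change 0.16, unadjusted p = 0.031). Glb1l3, a galactosidase-like gene, stood at 4.75, 3.15 and 3.33 FPKM in antagomir libraries, against 5.72, 5.13 and 5.52 FPKM in nc libraries (log2 fold change -0.46, unadjusted p = 0.011). The adjusted p of Cabp4 and of Glb1l3 was 0.801 by limma. Unc119, which encodes a chaperone of the lipid-modified transducin α subunit, stood at 558, 576 and 538 FPKM in antagomir libraries, against 541, 515 and 497 FPKM in nc libraries, with overlapping groups and adjusted p = 0.842 by limma.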

How the data were processed

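The labels name TRNzol for RNA extraction and a SMARTER kit for mRNA-Seq libraries. GRCm38 and mm10 are the builds in the submitters' processing notes. For the aligner, the counter and strand handling: not given in the sources used here. The authors deposited FPKM values with gene lengths, per the file headers. The nc columns carry the control's name. The other 3 columns carry a letter the labels do not explain and were read as the antagomir group, the only group left. Every direction rests on this. Multiplied by gene length and divided by the smallest such product above 0 in the library, 100% of the FPKM values came out as whole reads (to within 0.01 reads). In antagomir nc replicate 1 these reads summed to 15200313, more than the total of 1.48804e+07 that its FPKM scale implies. The totals behind the FPKM are therefore not plain sums of these reads.

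Genes with a mean of at least 0.5 FPKM were tested with R 4.3.3 and limma 3.58.1 (a linear model with trended eBayes) on log2(FPKM + 1), two-sided, with Benjamini-Hochberg adjustment over all 17453 genes at 0.05. All fold changes use that scale. Ratios and sums were compared with exact permutation tests.

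The genes, lists and naming rule were chosen with earlier results of these data known. Values per library are given for transducin, phosphodiesterase, channel, cyclase and activator genes, Prph2, Rom1, Sag, and rod genes with an unadjusted p under 0.05 or groups without overlap. From the other photoreceptor genes those with an unadjusted p under 0.05 and the 2 highest are named, of which some are not reported here. Rcvrn, Rgs9bp, Gnb5 and Selenbp1 were added after their values were seen. Alternatives were another pseudocount, filters, scalings (TPM, size factors, quantile), voom, eBayes without a trend, a replicate block, a lens term and libraries left out. The size-factor fit nearly repeated the main fit, with 1082 genes at an unadjusted limma p under 0.05 in both, so it adds no separate check.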

Additional observations from a re-analysis of the deposited data

How the results depend on the processing

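No rod gene had an adjusted p under 0.05 in the 16 alternative fits that kept at least 2 libraries a group. The size-factor fit among these 16 nearly repeated the main fit. The fit without the 3 libraries with lens transcripts leaves 1 nc library, which is assumed to vary like the antagomir libraries, so its lack of calls says little. Over the results followed, 41 values reversed, 22 moved and 554 did neither, though among these the rod median changed sign without antagomir nc replicate 1; the causes were not tested. Among all genes, voom called 1 gene, eBayes without a trend called 5, and leaving out 1 library at a time called 0 to 2, against 0. The median log2 fold change of the rod genes was -0.12 without the lens libraries and -0.071 to 0.026 when 1 library at a time was left out. The log2 difference of the summed rod level was -0.12 without the lens libraries and -0.039 to 0.049 without 1 library at a time. Of the 30 rod genes, 4 had an unadjusted p under 0.05 with quantile normalization, where 1077 of all tested genes did. With voom these counts were 2 rod genes and 1103 of all tested genes. Leaving out 1 library at a time gave 1 to 3 rod genes and 740 to 1183 of all tested genes. The main fit gave 1 rod gene (3.33%) and 1082 of all tested genes (6.20%).

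Between 0 and 6 of the 30 rod genes changed sign in a fit, most without antagomir nc replicate 1. Among the 17 followed gene by gene, these reversed. With quantile normalization Gnat1 was at 0.025, Gnb1 at 0.052 and Gucy2e at -0.0063, and with voom Gnat1 was at 5.83e-05 and Prph2 at 0.0073. With the lens score as a term Pde6g was at -0.015 and Gucy2e at -0.0087. Without the lens libraries Gngt1 was at -0.20, Pde6g at -0.13 and Rom1 at -0.065. Leaving out 1 library at a time gave -0.057 to 0.026 for Gnat1, -0.074 to 0.058 for Gnb1, -0.020 to 0.14 for Gngt1, -0.016 to 0.12 for Pde6g, -0.16 to 0.026 for Cnga1, -0.021 to 0.060 for Gucy2e and -0.068 to 0.079 for Prph2.

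Of the 25 ratios, 10 changed sign in their log2 difference. Leaving out 1 library at a time gave -0.055 to 0.047 for Gnat1/Gnb1, -0.11 to 0.0015 for Gnat1/Gngt1, -0.062 to 0.059 for Pde6g/Pde6b, -0.078 to 0.032 for Impg1/Impg2 and -0.063 to 0.029 for Sag/Rcvrn. It gave -0.014 to 0.13 for Gnat1/Gnat2, -0.069 to 0.12 for Gngt1/Gngt2, -0.037 to 0.089 for Pde6b/Pde6c, -0.061 to 0.078 for Pde6g/Pde6h and -0.27 to 0.050 for Cnga1/Cnga3. Without the lens libraries Gnat1/Gngt1 was at 0.11, Impg1/Impg2 at 0.035 and Gngt1/Gngt2 at -0.086.

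Same-numbered libraries correlated at -0.19, -0.10 and -0.14 in their deviations from the group means, and libraries of different numbers at -0.066 to 0.19. Deviations within a group of 3 sum to 0, so these values cannot decide whether the replicate numbers mark a pairing. With the replicate block 0 genes were called, the rod median stayed at -0.030, and the summed difference stayed at -0.0097. With 3 libraries a group, small differences could not be detected. The intervals given are not adjusted for the number of genes tested, so they do not set the limit of detection. The ratio interval of Rgs9 ran from 0.778 to 0.941, and its adjusted p was still 0.801 by limma.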
